A study of Mus musculus with 62 samples.

Results

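Mouse bladder cancer cells, labelled as basal, were treated for 24 h with rosiglitazone plus trametinib (RosiTram) or with all-trans retinoic acid (ATRA), and the messenger RNA of the 2 treatments was compared directly. The 10 samples were chosen by their labels alone: 4 RosiTram and 6 ATRA libraries at 24 h, out of 62 samples in 15 groups. All came from BBN963, a C57bl/6 wild-type line named after BBN, a nitrosamine that produces bladder tumours in mice. Libraries of the same line kept for 24 h in the solvent DMSO (3 samples) showed from which level each gene had moved. The 72 h libraries of the same groups (4 RosiTram, 5 ATRA and 3 DMSO samples) entered the fit and a later comparison over time. The doses are not given in the sources used here, and the controls carried the solvent but no drug. Both drugs of the combination were always present together, so the part of each cannot be told apart here.

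Rosiglitazone is an agonist of PPARG, a nuclear receptor that binds DNA together with RXR and drives luminal, umbrella cell-like differentiation in the urothelium. Trametinib inhibits the kinases MEK1 and MEK2, which activate ERK, and many genes of the immediate response to growth factors follow ERK activity within hours. ATRA is the natural ligand of the retinoic acid receptors, which also pair with RXR, and it switches on genes for its own breakdown as well as programmes of epithelial differentiation. Vitamin A is needed to keep the urothelium from turning squamous.

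The 13 libraries at 24 h held 4.64 to 16.1 M reads, with 5.23, 6.08 and 9.09 M in DMSO, 5.65 to 15.4 M in ATRA and 4.64 to 16.1 M in RosiTram. Values are the authors' normalised reads, that is reads divided by 1 size factor per library, and differences are log2 differences of the value plus 1 with their standard error (SE) from limma. A gene was called at an adjusted p under 0.05. This scale understates the change of genes with few reads, and values are not per length, so levels are compared between groups and not between genes. Nothing in the labels says whether replicates were separate cultures, so any p-value refers to the variation among these libraries, which may be technical. ATRA replicate 6 stood apart from the other 5 ATRA libraries at 24 h, although it was still nearest to its own group. The library labelled ATRA 72 h replicate 1 was nearest to the ATRA 24 h mean (root mean square distance 0.472 on the log2 scale, against 0.723 to its own group). It does not enter the difference at 24 h but adds to the estimate of the spread.

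The labelled cell type was checked against its markers. Krt8, a keratin of simple epithelia, was at 3402 to 7341 and the adhesion protein gene Cdh1 at 3044 to 5025 over the 24 h libraries. The 8 epithelial markers summed to 18120 to 19560 in RosiTram, 12500 to 16490 in ATRA and 13980 to 14580 in DMSO. The defining basal genes Krt5 and Trp63 were close to absent, with at most 2 and 7 reads in any 24 h library, so of the basal keratin markers Krt14 and not Krt5 was measured. Markers of fibroblasts, leukocytes and endothelium passed the filter for 3 of 12, 2 of 14 and 2 of 8 genes. Of these Fap, Cd68 and Vwf were called higher in RosiTram and 0 lower, where 21.1% and 21.6% of all genes were. Fap lost its call without ATRA replicate 2 or 5 or without RosiTram replicate 2, 3 or 4, and Vwf without RosiTram replicate 3. The fibroblast sum was 67.45 to 87.79 in RosiTram, 57.74 to 106.6 in ATRA and 69.96 to 81.48 in DMSO. The leukocyte sum, which was mostly Cd68, was 170.4 to 213.7 in RosiTram, 57.74 to 165.1 in ATRA and 44.58 to 48.84 in DMSO, and Ptprc, which marks leukocytes, did not pass the filter. The endothelium sum was 22.64 to 30.55, 14.26 to 24.17 and 15.84 to 26.13 in the same order. The part of other cell types in the results was not tested.

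RosiTram and ATRA left the cells with widely different transcriptomes. Of 14014 genes tested, 2954 were higher in RosiTram (21.1%) and 3030 lower (21.6%), so 42.7% of all genes were called in either direction. Differences of at least 2-fold were called for 394 genes higher (2.81%) and 640 lower (4.57%), and the median over all genes was 0.0030. In 2205 genes (15.7%) every RosiTram library was above every ATRA library, and in 2311 genes (16.5%) below. Without ATRA replicate 6 the calls numbered 3191 higher and 3142 lower. Against DMSO, RosiTram changed 7694 genes (54.9%), with 3882 higher (27.7%) and 3812 lower (27.2%). ATRA changed 3554 genes (25.4%), with 1753 higher (12.5%) and 1801 lower (12.9%), but only 2142 without DMSO replicate 1 and 2216 without DMSO replicate 3. Each treatment was set against the same 3 DMSO libraries, so their changes are given side by side and not correlated.

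**Figure D1:**
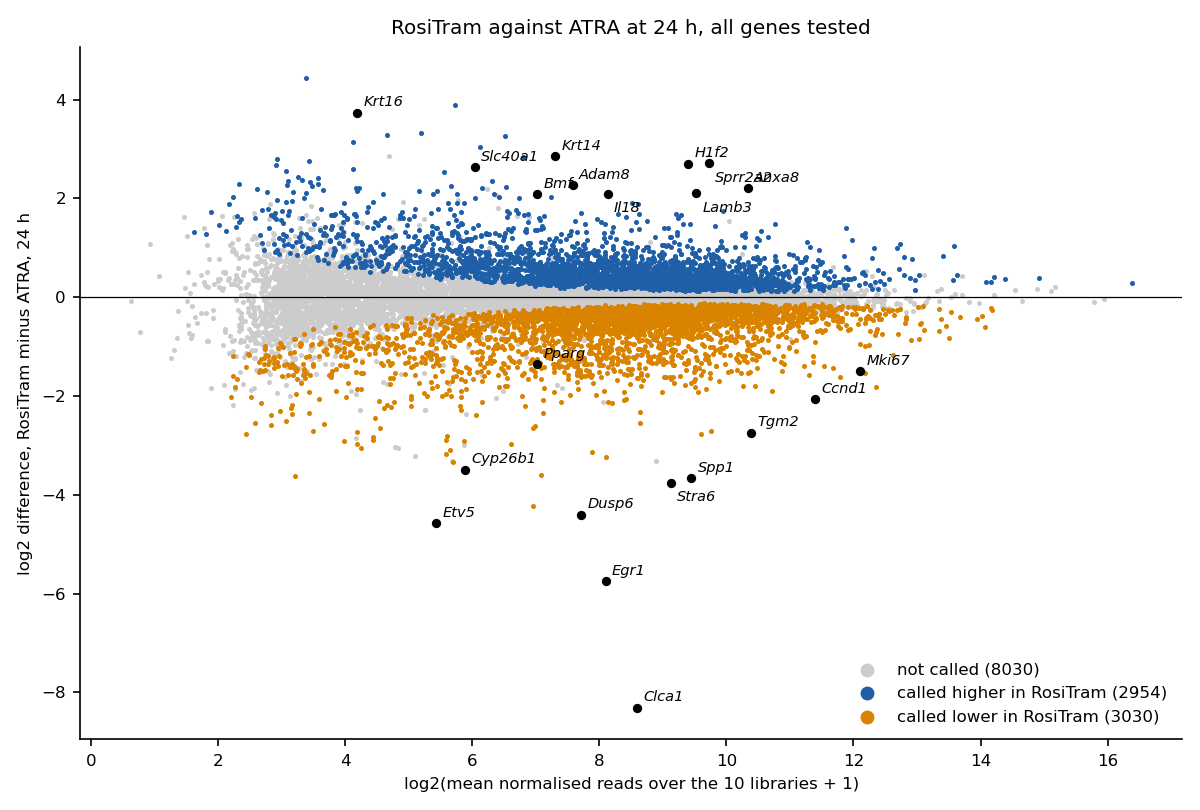
Every gene tested is a point, with the log2 of its mean normalised reads over the 10 libraries on the x axis and the log2 difference, RosiTram minus ATRA, on the y axis. Blue genes (2954) were called higher and orange genes (3030) lower in RosiTram, and Clca1, Egr1, Etv5 and Dusp6 lie farthest below 0 among the named genes.

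Genes that follow ERK activity were far lower in RosiTram than in ATRA. Dusp6 (chr10:99263231-99267489, GRCm38), a phosphatase that inactivates ERK and follows its activity, was at 20.8, 13.3, 18.5 and 9.83 normalised reads in the RosiTram libraries. In ATRA it ranged from 303 over a median of 337 to 379, and DMSO libraries had 503, 446 and 428. Every RosiTram library was thus far below every ATRA and DMSO library, and the groups did not overlap. The difference between the treatments was -4.40 ± 0.17 (SE, adjusted p = 1.13e-15). Dusp6 did not pass the test between ATRA and DMSO (-0.44 ± 0.19, adjusted p = 0.0896), although every ATRA library was below every DMSO library.

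Of the 12 feedback inhibitors of ERK signalling on the list, 9 were lower and 1 was higher in RosiTram, where 21.6% of all genes were lower, and their median difference was -1.22 against 0.0030 for all genes. The phosphatases Dusp4 (-2.07 ± 0.10) and Dusp5 (-2.12 ± 0.24) were among the lower genes. Spry4, a Sprouty protein that dampens receptor tyrosine kinase signalling, had a single read in all 4 RosiTram libraries together and 83 reads in ATRA. At equal depth that is 64.8 times more in ATRA, with an exact 95% interval for counting error of 11.3 to 2590. Lrig1, which restrains ERBB receptors, went the other way, being higher in RosiTram than in ATRA by 0.33 ± 0.05 (adjusted p = 1.64e-05). Both treatments were below DMSO, ATRA at -0.66 and RosiTram at -0.33. Of the whole list 5 genes were lower and 0 higher in ATRA against DMSO, where 12.9% and 12.5% of all genes were. In RosiTram 11 were lower and 0 higher against DMSO, where 27.2% and 27.7% of all genes were.

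Of 18 transcription factors downstream of ERK 12 were lower and 2 higher, where 21.6% and 21.1% of all genes were, with a median of -1.06. Egr1 (chr18:34859823-34864984), an immediate early zinc-finger factor, was at 7.08, 9.31, 6.55 and 6.55 in RosiTram. The ATRA libraries held 373 at the lowest, 435 in the middle and 621 at the highest, and the DMSO libraries 234, 239 and 235. Egr1 therefore stood on opposite sides of the solvent level in the 2 treatments, up in ATRA by 0.91 ± 0.21 (adjusted p = 0.00259) and down in RosiTram (-4.84 ± 0.22, adjusted p = 8.63e-14). The ETS factors Etv5 and Etv4, which ERK signalling induces, differed by -4.57 ± 0.34 and -2.73 ± 0.47. Etv5 (chr16:22381309-22439719) had 2.83, 0, 2.18 and 4.92 normalised reads in RosiTram, 56.4 to 79.4 in ATRA and 134 to 136 in DMSO. The AP-1 members Fosl2 and Jun were the exceptions, higher in RosiTram by 1.20 ± 0.11 and 0.50 ± 0.07. For Fosl2 the RosiTram libraries (2064 to 2275) were near DMSO (1843 to 1952), and the ATRA libraries (723 to 1058) were the low ones. Against DMSO 5 of the 18 factors were lower and 3 higher in ATRA, where 12.9% and 12.5% of all genes were. In RosiTram 13 were lower and 2 higher against DMSO, where 27.2% and 27.7% of all genes were.

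**Figure D2:**
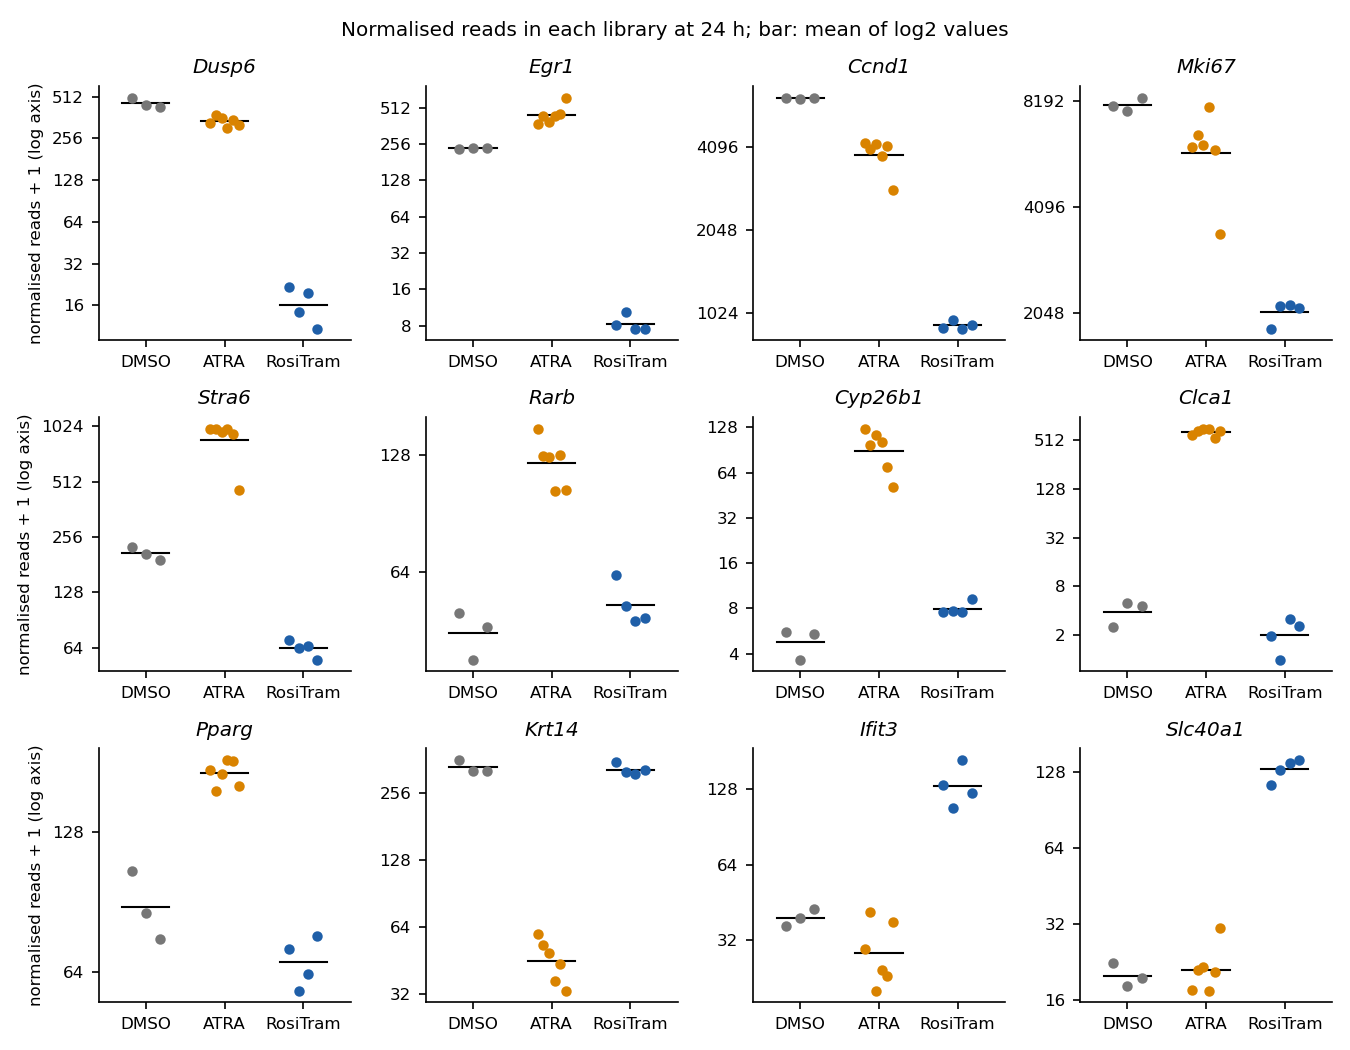
Each point is the normalised reads plus 1 of a gene in a library at 24 h on a log axis, for DMSO (3), ATRA (6) and RosiTram (4), and the bar is the mean of the log2 values. Dusp6, Egr1, Ccnd1 and Mki67 are lowest in RosiTram, Stra6, Rarb, Cyp26b1, Clca1 and Pparg are highest in ATRA, Krt14 is low in ATRA alone, and Ifit3 and Slc40a1 are highest in RosiTram.

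The ERBB family feeds into ERK. Among 13 measured ligands and receptors 4 were lower and 2 higher in RosiTram, not far from the 21.6% and 21.1% of all genes. The lower genes were the ligands Areg (-1.18 ± 0.37), Hbegf (-1.12 ± 0.14) and Nrg1 (-1.05 ± 0.19) and the ephrin receptor Epha2 (-1.01 ± 0.08), which was on that list too. The receptors Erbb3 and Erbb2 were higher, by 0.93 ± 0.11 and 0.24 ± 0.07. Areg showed a graded order of the groups, with 189, 191 and 174 in DMSO, 31.3 to 60.1 in ATRA and 18.0 to 26.2 in RosiTram.

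Several genes known to respond to retinoic acid were higher in ATRA than in RosiTram. Of the 20 measured genes on the retinoid list, ATRA raised 8 and lowered 4 against DMSO, where it raised 12.5% and lowered 12.9% of all genes. Retinoic acid receptors bind pairs of a 6-base unit, and the RefSeq promoter windows (250 bases before to 50 after each start, GRCm38) were searched for such pairs. The unit was AGGTCA, where the first base could also be G and the third T, on either strand in direct repeats with 5, 2 or 1 bases between (DR5, DR2 and DR1). DR5 was in the windows of 31 of 27025 genes (0.115%), and of the 28 genes on the retinoid list 22 had a window and 2 of these held a DR5, Rarb and Cyp26a1. A DR1 was in the window of Bco1, which was not tested, and no window of the list held a DR2 (DR1 and DR2 were in 0.222% and 0.268% of all windows). The 100 bases before the start of both are shown because they carry this repeat, in capitals, in genes known to respond to retinoic acid. The Rarb stretch is chr14:16575477-16575576, minus strand, which lies within the annotated span of the gene, and the Cyp26a1 stretch is chr19:37697708-37697807, plus strand, with the repeat on its opposite strand.
Rarb: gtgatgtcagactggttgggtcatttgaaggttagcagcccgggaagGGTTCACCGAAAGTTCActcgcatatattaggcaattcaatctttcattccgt
Cyp26a1: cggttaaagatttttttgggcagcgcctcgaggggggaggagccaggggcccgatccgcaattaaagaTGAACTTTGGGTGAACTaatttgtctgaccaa
The repeat lies 53 to 37 bases before the start in Rarb and 32 to 16 bases before it in Cyp26a1. A match is a description of these letters and not of binding.

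Rarb (chr14:16430839-16819156), a retinoic acid receptor whose own gene responds to the ligand, was at 61.8, 51.2, 46.9 and 47.5 in RosiTram and at 49.2, 37.0 and 45.1 in DMSO. The ATRA libraries had 103 at the lowest, 126 in the middle and 149 at the highest, above all others. Rarb was lower in RosiTram than in ATRA (-1.22 ± 0.19, adjusted p = 1.07e-05), and RosiTram did not pass the test against DMSO (0.24 ± 0.22, adjusted p = 0.367). Cyp26a1, which breaks down retinoic acid, had no read in DMSO and at most 2 reads in any ATRA or 1 in any RosiTram library, so no difference was detectable at this depth.

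The related enzyme Cyp26b1 (chr6:84571414-84593908) was read at higher levels. It had 6.60, 6.65, 6.55 and 8.19 normalised reads in RosiTram, 4.61, 2.64 and 4.42 in DMSO and 50.4, 98.9 and 124 as the lowest, median and highest in ATRA. ATRA was higher than both other groups without overlap, and in reads at equal depth it held 13.7 times the RosiTram level (exact 95% interval for counting error 9.71 to 19.8). The small value in RosiTram was still called above DMSO (0.73 ± 0.29, adjusted p = 0.0354).

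Stra6 and Dhrs3 behaved differently from each other in RosiTram. Stra6 (chr9:58063788-58153996), the cell-surface receptor through which vitamin A enters, was at 69.3, 63.2, 64.4 and 54.1 in RosiTram, below DMSO at 224, 207 and 192. ATRA libraries held 457, 969 and 993 as the lowest, median and highest, where 457 was replicate 6. Stra6 was thus called in opposite directions, higher in ATRA (2.04 ± 0.20) and lower in RosiTram (-1.72 ± 0.22) against DMSO, and it differed between the treatments by -3.75 ± 0.18 (adjusted p = 8.55e-14). Its span overlaps that of Ccdc33 on the opposite strand (chr9:58028677-58118823), which also differed (-2.91 ± 0.26), and without stated strand counting the reads of the overlapping parts cannot be told apart. Dhrs3 (chr4:144892827-144928209), which reduces retinal back to retinol, rose in both treatments against DMSO, by 2.57 ± 0.19 in ATRA and 1.05 ± 0.20 in RosiTram. Its normalised reads were 319.8, 304 and 273 in DMSO, 689.6, 591, 564 and 633 in RosiTram and 1693 to 1907 in ATRA, so the 3 groups were ordered without overlap.

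Over the whole retinoid list 9 of 20 measured members were lower and 3 higher in RosiTram than in ATRA. The median was -0.34, and 21.6% and 21.1% of all genes were lower and higher. Tgm2 (chr2:158116402-158146436), a transglutaminase induced by retinoids, was lower (-2.74 ± 0.16), with 277 to 329 in RosiTram, 529 to 603 in DMSO and 1464 to 2234 in ATRA. The 3 higher members were enzymes that act on retinol or retinal. Adh7, an alcohol dehydrogenase of epithelia, reached 477, 454, 464 and 431 in RosiTram against 142 to 213 in ATRA and 84.5 to 94.7 in DMSO (1.32 ± 0.19, adjusted p = 6.02e-06). Aldh1a1, which makes retinoic acid, was read at low values of 15.3 to 27.4 in RosiTram against 1.37 to 8.41 in ATRA (2.17 ± 0.34, adjusted p = 1.84e-05). Hox and TALE homeobox genes, several of which retinoic acid controls in embryos, showed 5 of 18 higher and 1 lower in RosiTram, but 3 higher without ATRA replicate 3 and 2 without RosiTram replicate 4, where 21.1% of all genes were higher. Against DMSO ATRA raised none of the 18 and lowered 3, where it raised 12.5% and lowered 12.9% of all genes.

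The gene with the largest called difference was Clca1 (chr3:145003817-145032776), which encodes a secreted regulator of chloride channels that goblet cells of gut and airway make. RosiTram libraries had 0.943, 0, 2.18 and 1.64 normalised reads, DMSO libraries 1.54, 3.96 and 3.54, and ATRA libraries 545, 654 and 703 as the lowest, median and highest. Clca1 was therefore next to unread except in ATRA, where all 6 libraries were high. In reads at equal depth ATRA held 668 times the RosiTram level, with an exact 95% interval of 286 to 2059 from 4278 and 5 reads, and the fitted difference was -8.31 ± 0.40 (adjusted p = 4.75e-14). Of 7 measured secretory and mucin genes 4 were lower and 1 was higher in RosiTram, where 21.6% and 21.1% of all genes were, with a median of -1.46. The lower genes were Clca1, its relatives Clca3b and Clca3a1, and Muc1, so most belonged to a single gene family. Of the 22 listed genes 15 did not pass the filter. Muc1, a transmembrane mucin, was at 13.1 to 20.6 in RosiTram, 18.5 to 29.2 in DMSO and 54.8 to 87.5 in ATRA (-1.96 ± 0.18). Fcgbp, a mucus protein, was the higher gene, by 1.15 ± 0.23.

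**Figure D3:**
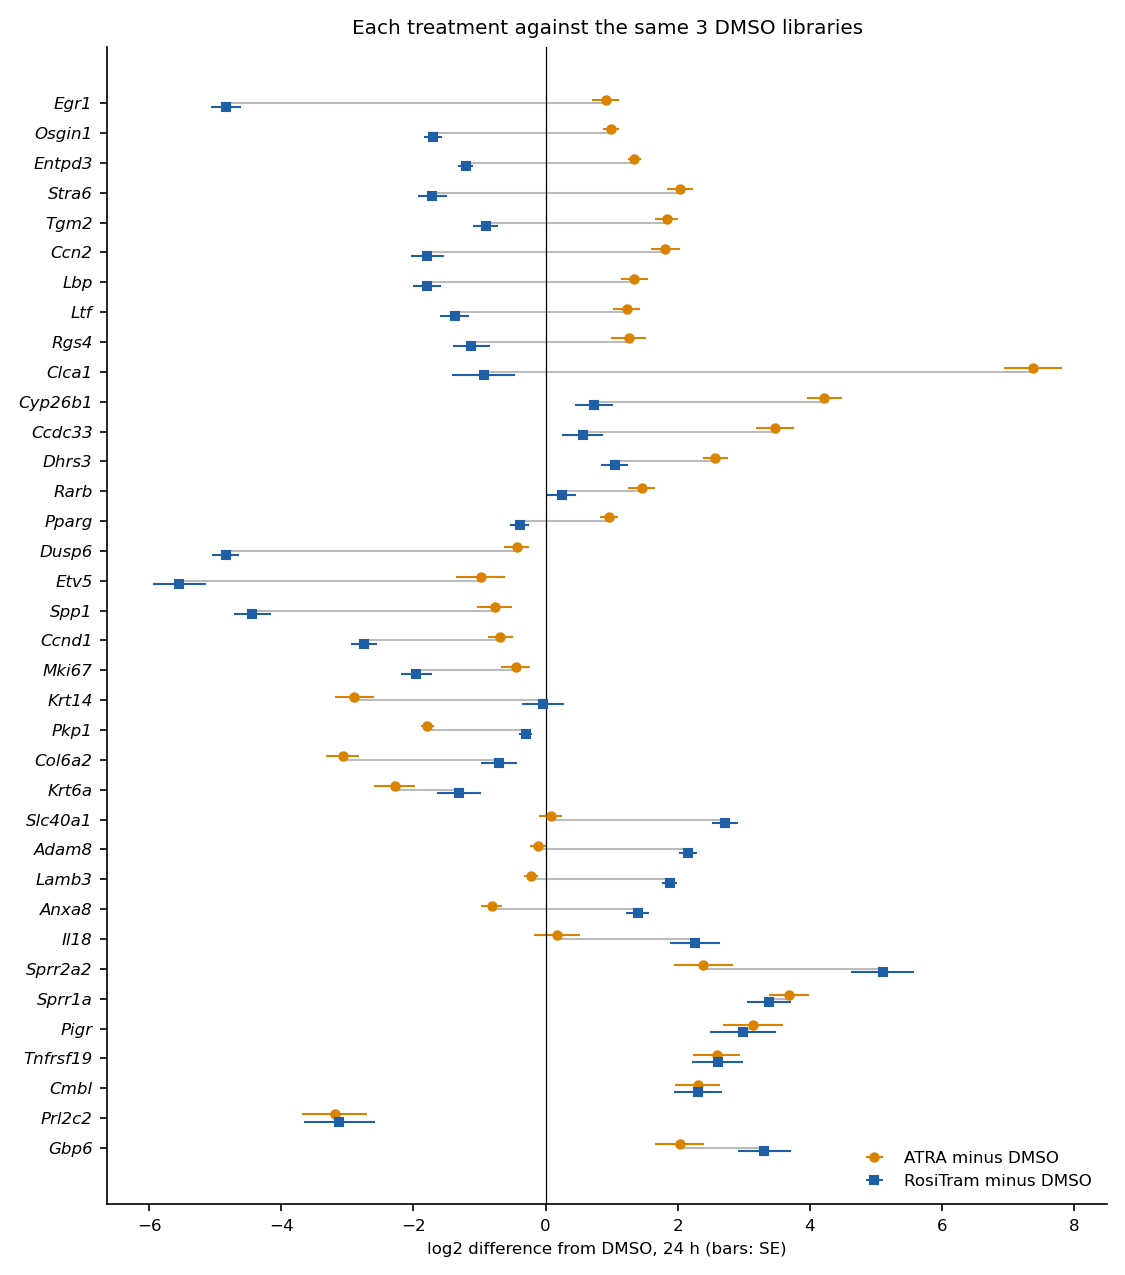
The log2 difference from the same 3 DMSO libraries is given on the x axis for ATRA (orange circles) and RosiTram (blue squares) with SE bars, 1 row per gene. From Egr1 to Rgs4 the treatments lie on opposite sides of 0, Clca1 at 7.37 in ATRA is the longest distance from 0, and the lowest rows hold genes that changed in the same direction in both.

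Pparg itself (chr6:115360951-115490399), the receptor of rosiglitazone, was lower under its agonist than under ATRA. It was at 70.8, 57.2, 62.2 and 75.4 in RosiTram, 105, 84.5 and 74.3 in DMSO and 156, 171 and 182 (lowest, median, highest) in ATRA. The ATRA libraries were the highest without overlap, and RosiTram and DMSO overlapped in that RosiTram replicate 4 exceeded DMSO replicate 3. The difference was -1.35 ± 0.12 (adjusted p = 6.07e-09), made of a rise in ATRA (0.96 ± 0.14) and a fall in RosiTram (-0.39 ± 0.15, adjusted p = 0.0256) against DMSO. Its DNA-binding partner Rxra was slightly higher in RosiTram (0.28 ± 0.07, adjusted p = 0.00236), and 3 of 10 receptors and cofactors were higher and 2 lower in all, near the 21.1% and 21.6% of all genes. The other lower gene was Nrip1, a corepressor that retinoic acid induces (-0.53 ± 0.12).

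PPARG target genes did not separate the treatments as a list: 4 of 21 measured members were higher and 4 lower, a share near the 21.1% and 21.6% of all genes, and the median was -0.08. The higher genes numbered 2 without ATRA replicate 1, 2 or 3 or without RosiTram replicate 2 or 3. Fabp4, the fat cell lipid carrier, had at most 4 reads in any 24 h library. Angptl4, a secreted inhibitor of lipoprotein lipase, was at 189, 144, 169 and 154 in RosiTram and at 118, 137 and 103 in DMSO. In ATRA 5 libraries lay between 141 and 152 while replicate 6 was at 998, and the difference of -0.30 ± 0.44 (95% interval -1.21 to 0.62, adjusted p = 0.619) became 0.16 (adjusted p = 0.626) without that library. The called members were Aqp3, a water and glycerol channel (2.13 ± 0.37), Hilpda, a lipid droplet protein (-1.39 ± 0.17), and Ucp2, a mitochondrial carrier (-1.09 ± 0.12), among others with smaller differences. Aqp3 was read at 12 to 18 in RosiTram, 16.8 to 27.7 in DMSO and 1.34 to 5.47 in ATRA, so its difference came with a fall in ATRA (-2.62 against DMSO).

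Fatty acid oxidation, which PPARs control in many tissues, was somewhat higher in RosiTram. Of 26 genes 10 were higher and 0 lower than in ATRA, where 21.1% and 21.6% of all genes were, with a median of 0.23. Against DMSO 20 were higher in RosiTram and 15 in ATRA, where 27.7% and 12.5% of all genes were. Cpt1a, the gate for fatty acids into mitochondria, was at 1702 to 2024 in RosiTram, 833 to 926 in DMSO and 1085 to 1822 in ATRA (0.53 ± 0.14, adjusted p = 0.00294). ATRA replicate 6 held the 1822, and its mean level over the list (8.51 on the log2 scale) was above all RosiTram libraries (8.33 to 8.47), whereas the other ATRA libraries were at 8.05 to 8.14. Without it 16 of the 26 genes were called higher in RosiTram, and without RosiTram replicate 1 only 5.

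Luminal genes were higher in RosiTram for 8 of 17 members and lower for 3, or 5 without ATRA 72 h replicate 1. The median was 0.25, and 21.1% and 21.6% of all genes were higher and lower. Pparg, described above, was on this list and was its only member lower by at least 2-fold (-1.35 ± 0.12). Foxa1, a pioneer factor of luminal cells, did not pass the test between the treatments (0.17 ± 0.13, 95% interval -0.10 to 0.43, adjusted p = 0.305). It was at 2564 to 2739 in RosiTram, 2238 to 2517 in ATRA and 1790 to 1954 in DMSO, so the groups did not overlap. The SE also takes in the 72 h libraries, where ATRA replicate 1 was at 2355 and the other ATRA libraries at 1088 to 1241. Without that library the SE of the Foxa1 change over time fell from 0.18 to 0.07. Gata3, another luminal factor, was higher by 0.25 ± 0.08 (adjusted p = 0.017), a call that was lost without RosiTram replicate 2 (adjusted p = 0.0788). Upk2, a uroplakin of umbrella cells, was at 31.1, 15.3, 26.2 and 19.7 in RosiTram, 4.10 to 11.5 in ATRA and 0.885 to 7.92 in DMSO (1.69 ± 0.39, adjusted p = 0.000961). The other uroplakins followed here, Upk1b and Upk3a, and Krt20 had at most 2 reads in any library. Keratin Krt8 and the protease Tmprss2 were higher by 0.79 ± 0.09 and 0.74 ± 0.07.

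Basal genes were higher in RosiTram as well, 9 of 15 with 3 lower, where 21.1% and 21.6% of all genes were. Their median was 0.55, and several of these differences arose from a fall in ATRA. Krt14 (chr11:100203162-100207548), a keratin of basal cells, was at 353, 316, 309.8 and 323 in RosiTram and 361, 321 and 320.3 in DMSO, so these groups overlapped. The ATRA libraries were at 32.1, 45.5 and 58.3 (lowest, median, highest), all below the others, and the difference between the treatments was 2.86 ± 0.27 (adjusted p = 1.74e-08). Against DMSO 2 basal genes were higher and 9 lower in ATRA, where 12.5% and 12.9% of all genes were. In RosiTram 6 were higher and 2 lower, where 27.7% and 27.2% of all genes were. Notch3, a receptor of basal cells, was at 63.8 to 83.6 in RosiTram, 36.9 to 50.4 in DMSO and 8.06 to 25.2 in ATRA (2.08 ± 0.25). Lamb3 (chr1:193207699-193343878), a chain of the laminin that anchors basal cells, was at 1271, 1369, 1391 and 1398 in RosiTram, 338 to 397 in DMSO and 259.8 to 421 in ATRA (2.10 ± 0.10, adjusted p = 1.6e-14). The 3 lower genes included the keratin Krt15 (-1.28 ± 0.30), which was at 61.9 in ATRA replicate 6 and 158 to 214 in the other ATRA libraries, and the hyaluronan receptor Cd44 (-0.52 ± 0.13).

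Of 16 squamous and cornified envelope genes 9 were higher and 2 lower in RosiTram, where 21.1% and 21.6% of all genes were, with a median of 0.58. Krt16, a keratin of stressed epidermis, was read at 43.9, 45.9, 31.6 and 34.4 in RosiTram, 3.96 to 6.19 in DMSO and 0 to 5.48 in ATRA (3.74 ± 0.45). Pkp1, a desmosomal plaque protein, was below its DMSO level in RosiTram without overlap (1036 to 1187 against 1352 to 1391). It was lower still in ATRA, at 327 to 425 (1.48 ± 0.09 between the treatments). The lower genes were Krt13 and Krt4, keratins of non-keratinised stratified epithelia, with differences of -1.52 ± 0.26 and -1.23 ± 0.16 and a rise in ATRA against DMSO of 1.26 and 1.80. Among the small proline-rich proteins, precursors of the cornified envelope, Sprr2a2 was at 1573 to 1819 in RosiTram, 204 to 526 in ATRA and 39.6 to 54.9 in DMSO (2.72 ± 0.41). It and Sprr2a1 and Sprr2a3 are near-identical copies between which reads can be split, so the single values are uncertain. Sprr1a did not separate the treatments (-0.30 ± 0.28, 95% interval -0.89 to 0.28), and rose in both against DMSO, by 3.39 in RosiTram and 3.69 in ATRA.

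The cell division programme was lower in RosiTram throughout. All 26 mitosis genes and 27 of 28 DNA replication genes were called lower than in ATRA, where 21.6% of all genes were, with medians of -1.28 in both lists. The replication gene not called was E2f2. Mki67 (chr7:135689784-135716361), the Ki-67 marker of cycling cells, was at 1843, 2134, 2155 and 2106 in RosiTram and 7899, 7659 and 8359 in DMSO. In ATRA it was at 3416, 6088 and 7874 (lowest, median, highest), between the other groups except that its top reached the DMSO range. The difference was -1.50 ± 0.20 (adjusted p = 3.45e-06), and ATRA did not pass the test against DMSO (-0.45 ± 0.22, adjusted p = 0.136). Against DMSO 26 and 28 members of these lists were lower in RosiTram, and 12 and 15 in ATRA, where 27.2% and 12.9% of all genes were lower. In bulk RNA, fewer cells in division and less RNA per dividing cell cannot be told apart.

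ATRA replicate 6 moved with this result. Its mean over the mitosis genes was 9.81 on the log2 scale, against 10.44 to 10.49 in the other ATRA libraries and 9.04 to 9.07 in RosiTram. Leaving it out kept every mitosis gene and 27 replication genes called lower.

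**Figure D4:**
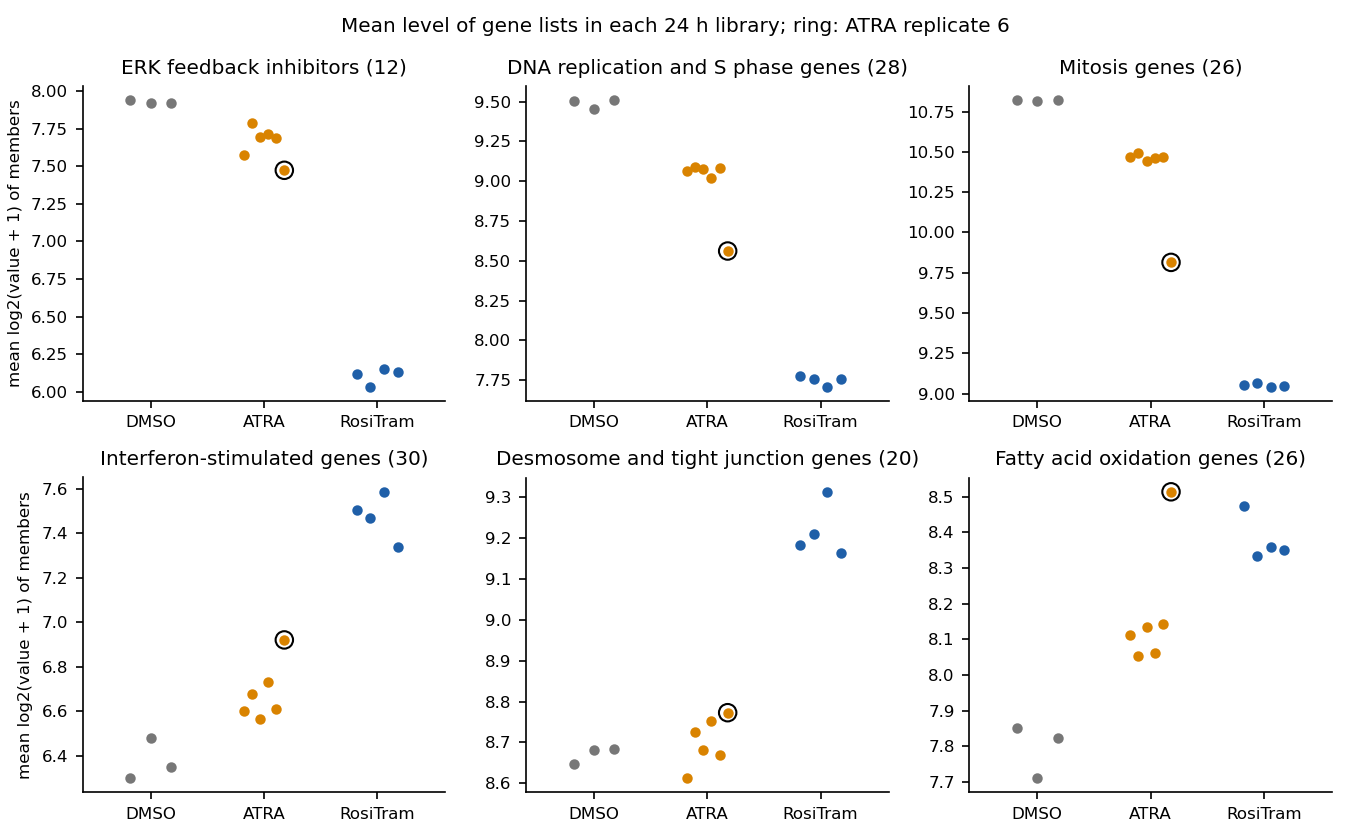
Each point is the mean log2(value + 1) of a list's measured members in a 24 h library, for DMSO, ATRA and RosiTram, and the ring marks ATRA replicate 6. RosiTram is lowest for ERK feedback, replication and mitosis genes and highest for interferon-stimulated and junction genes, and replicate 6 is the ATRA library nearest to RosiTram in 5 panels and above it for fatty acid oxidation.

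Among regulators of entry into the cycle, Ccnd1 was lower too. Ccnd1 (chr7:144929931-144939925), cyclin D1, which ERK signalling induces, was at 900.5, 964, 892 and 919 in RosiTram and 6183, 6160.5 and 6221 in DMSO. ATRA libraries held 2860.1, 4080.4 and 4259 (lowest, median, highest), so the groups were ordered without overlap, and the difference was -2.07 ± 0.17 (adjusted p = 1.8e-09). Among 15 D cyclins, their kinases and inhibitors 8 were lower and 3 higher in RosiTram, or 1 higher without RosiTram replicate 1 or 4. The shares of all genes were 21.6% lower and 21.1% higher. The inhibitor Cdkn2b was higher by 0.88 ± 0.13, and Cdkn1a, the p21 inhibitor, was lower (-0.57 ± 0.14) with a rise in ATRA (0.75 against DMSO).

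Several genes that promote apoptosis were higher in RosiTram. Of 18 measured BCL2 family and death receptor genes 10 were higher and 3 lower, where 21.1% and 21.6% of all genes were, and the median was 0.44. Bmf, a BH3-only protein that neutralises BCL2, was at 251, 233, 224 and 243 in RosiTram, 46.1 to 64.7 in DMSO and 38.4 to 85.6 in ATRA (2.09 ± 0.37, adjusted p = 7.33e-05). The BH3-only gene Pmaip1 (Noxa) was higher by 1.61 ± 0.09, at 932 to 1055 against 292 to 385. The anti-apoptotic genes Bcl2 and Bcl2l1 were lower (-1.90 ± 0.16 and -1.10 ± 0.08). Bcl2 was at 88.5 to 115 in RosiTram, 296 to 415 in ATRA and 438 to 486 in DMSO. Messenger RNA levels do not measure cell death.

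Interferon-stimulated genes had a median of 0.84, with 26 of 30 higher and 1 lower in RosiTram than in ATRA, where 21.1% and 21.6% of all genes were. Against DMSO 24 were higher in RosiTram and 9 in ATRA, where 27.7% and 12.5% of all genes were. Ifit3, an antiviral tetratricopeptide protein with a near-identical copy, was at 133, 106, 167 and 123 in RosiTram, 35.4 to 41.6 in DMSO and 19.1 to 40.3 in ATRA (2.22 ± 0.25, adjusted p = 1.24e-07). Irf7, the factor that amplifies type I interferon, was higher by 1.41 ± 0.21 and the guanylate-binding protein Gbp2 by 1.42 ± 0.17. Oasl1, a brake on Irf7 translation in mice, was the lower gene (-1.42 ± 0.15), at 27.9 to 43.9 in RosiTram and 33.8 to 37.2 in DMSO, and 83.7 to 109 in ATRA. Genes of antigen presentation by MHC class I followed with smaller differences, 13 of 17 higher and 0 lower with a median of 0.50. Their regulator Nlrc5 was higher by 0.79 ± 0.13 and the peptide loader Tapbp by 0.75 ± 0.11.

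Single cytokine genes differed widely, although the counts over their list were not far from those of all genes. Of 21 interleukin-1 family members and chemokines 6 were higher and 8 lower in RosiTram, or 5 lower without RosiTram replicate 4, where 21.1% and 21.6% of all genes were. Il18 was at 629, 458, 469 and 508 in RosiTram against 103 to 188 in ATRA (2.09 ± 0.32), and the monocyte chemokine Ccl2 at 599.9 to 699.8 against 133 to 313 (1.91 ± 0.19). Il1a, an alarmin of epithelial cells, was at 9.43, 6.65, 5.46 and 6.55 in RosiTram, 50.4 to 105 in ATRA and 157 to 185 in DMSO (-3.33 ± 0.22, adjusted p = 2.38e-11). Il33, another alarmin, was lower (-1.54 ± 0.19), at 1873 to 2324 against 3230.0 in ATRA replicate 6 and 6755 to 7188 in the other ATRA libraries. The colony-stimulating factor Csf3 was lower too (-2.25 ± 0.45).

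**Figure D5:**
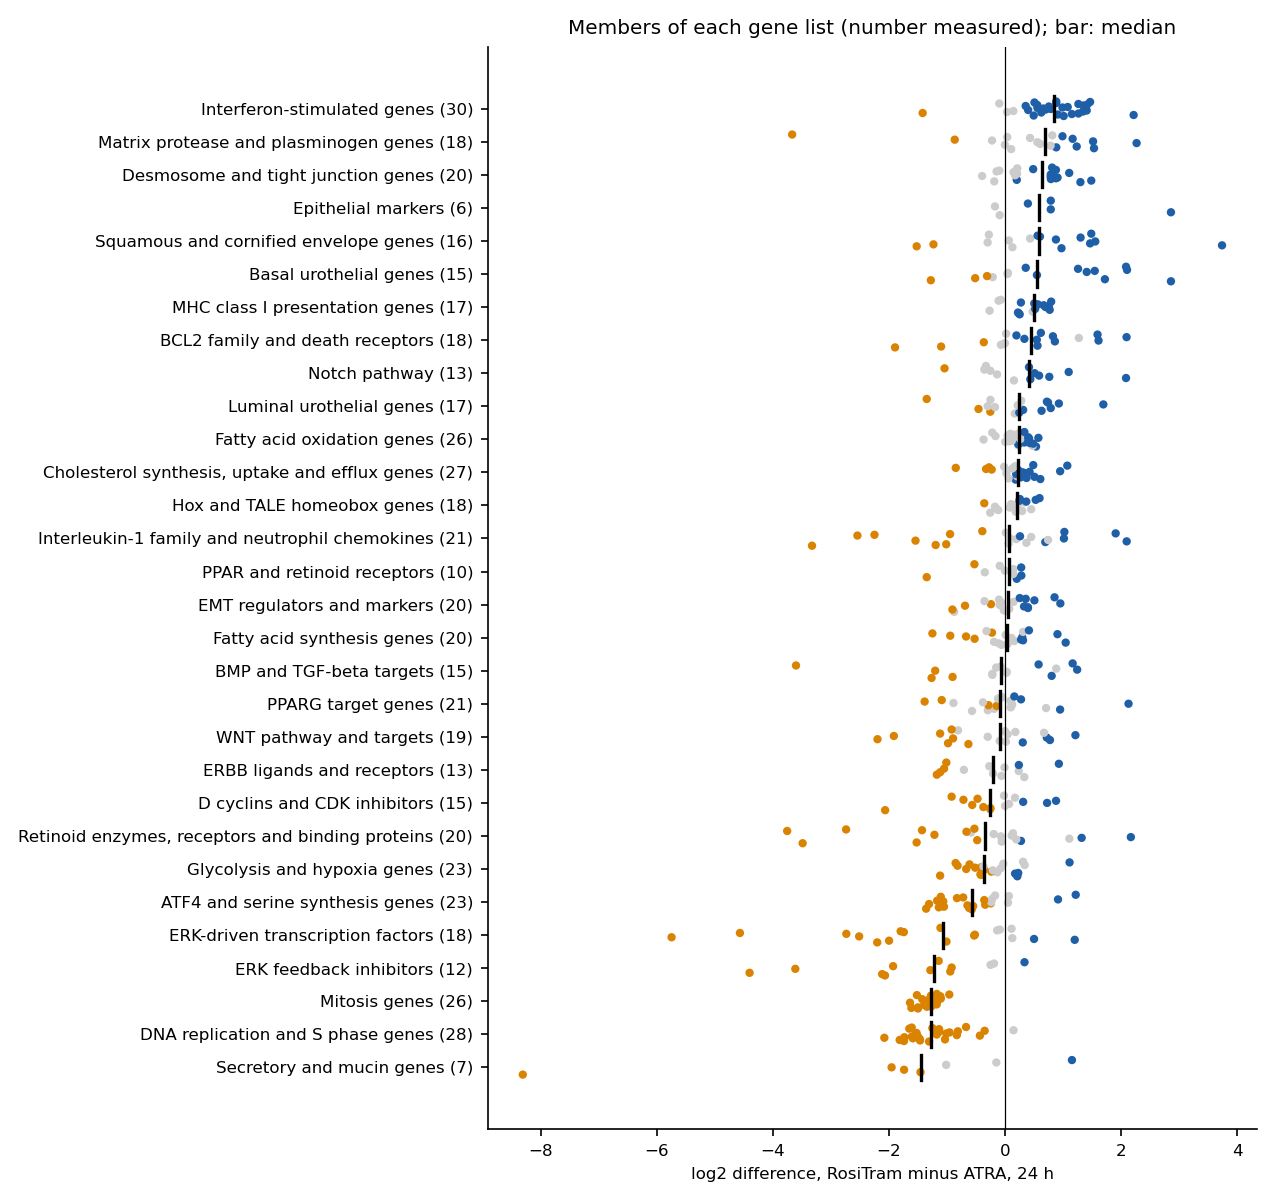
For each list with at least 5 measured genes, points are members' log2 differences, RosiTram minus ATRA, and the bar is the median. Blue and orange points were called higher and lower. Interferon-stimulated genes have the highest median (0.84), and the mitosis, replication and secretory lists the lowest (-1.28, -1.28 and -1.46).

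Many junction genes were higher in RosiTram. Of 20 desmosome and tight junction genes 12 were higher and 0 lower, where 21.1% and 21.6% of all genes were. Their median was 0.64, and 1 was lower without ATRA replicate 6 or without ATRA 72 h replicate 1. Dsp, the desmosomal linker to keratin, was at 1574 to 2130 in RosiTram, 677 to 866 in ATRA and 859 to 930 in DMSO (1.30 ± 0.10), and Cldn4, a claudin of tight junctions, at 3066 to 3267 against 1572 to 2946 (0.79 ± 0.11). Among 18 matrix protease and plasminogen genes 7 were higher and 2 lower, beside the same shares of all genes, or 11 higher without ATRA 72 h replicate 1. Adam8 (chr7:139978932-139992562), a membrane metalloprotease, was at 343, 384, 373 and 356 in RosiTram, 75.3 to 90.3 in DMSO and 68.2 to 82.5 in ATRA (2.27 ± 0.11, adjusted p = 6.86e-14). The urokinase gene Plau was higher by 1.52 ± 0.25 and the tissue activator Plat lower (-0.87 ± 0.11). Spp1 (chr5:104435118-104441050), osteopontin, was at 87.7, 82.5, 80.7 and 85.2 in RosiTram, 656 to 1283 in ATRA and 1733 to 1949.7 in DMSO (-3.67 ± 0.24, adjusted p = 1.37e-10). Of 20 regulators and markers of epithelial-mesenchymal transition 8 were higher, or 5 without RosiTram replicate 3, and 3 lower. Their median was 0.05, and 21.1% and 21.6% of all genes were higher and lower. The epithelial splicing factor Esrp2 was higher by 0.95 ± 0.08, and Tnc, Tgfb1 and Zeb2 were called higher as well. The calls of Tnc and Zeb2 were lost with some single libraries left out. Fibronectin (Fn1, -0.69 ± 0.17) and Twist2 were lower, so the list had no common direction.

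Notch genes were higher in 7 of 13 cases with 1 lower, where 21.1% and 21.6% of all genes were. With edgeR or DESeq2, or without ATRA replicate 1 or 6 or ATRA 72 h replicate 1, 2 were lower. The ligand Jag1 was at 425 to 540 in RosiTram, 297 to 347 in ATRA and 564 to 607 in DMSO (0.59 ± 0.12), while the feedback gene Nrarp was lower (-1.04 ± 0.15). WNT genes were higher in 4 and lower in 7 of 19, beside the same shares of all genes. The ligand Wnt4 was higher by 1.21 ± 0.08 and the stem cell receptor Lgr5 lower (-2.20 ± 0.26). Of 15 targets of BMP and TGF-beta 4 were higher and 4 lower, like the higher WNT genes near the 21.1% and 21.6% of all genes. Ccn2 (chr10:24595442-24598683), a matricellular protein, was at 13.7, 14.0, 26.2 and 14.7 in RosiTram, 63.0, 55.4 and 60.2 in DMSO and 164 to 245 in ATRA, with opposite changes from DMSO (-1.79 ± 0.24 and 1.81 ± 0.23). The inhibitors of differentiation split, Id1 being lower (-1.27 ± 0.09) and Id3 higher by 0.80 ± 0.11.

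Other metabolic lists differed in direction. Of 23 genes of the ATF4 response and serine synthesis 16 were lower and 2 higher in RosiTram, with a median of -0.57. Over all genes 21.6% were lower and 21.1% higher, shares that also apply to the lists that follow. Psat1, a serine synthesis enzyme, was at 874 to 1053 in RosiTram, 2146 to 2683 in ATRA and 2927 to 3105 in DMSO (-1.36 ± 0.11), while the stress protein Nupr1 was higher by 1.22 ± 0.13. Glycolysis and hypoxia genes were lower in 12 and higher in 4 of 23, with hexokinase Hk2 lower (-1.12 ± 0.13). The higher genes numbered 1 or 2 without ATRA replicate 1, 3, 5 or 6 or without any single RosiTram library. Cholesterol genes were higher in 16 and lower in 4 of 27 with a median of 0.23, among them the exporter Abcg1 (1.07 ± 0.12). Of 20 fatty acid synthesis genes 6 were higher and 5 lower, near the 21.1% and 21.6% of all genes, among them Acacb, which restrains oxidation (1.04 ± 0.16), and the desaturase Fads2 (-0.94 ± 0.19).

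Several of the 15 highest genes by the naming rule fall in none of the lists. Slc40a1 (chr1:45908068-45926523), ferroportin, the exporter of iron, was at 113, 129.7, 139 and 143 in RosiTram, 21.5, 17.2 and 18.6 in DMSO and 16.4 to 29.8 in ATRA (2.64 ± 0.16, adjusted p = 3.42e-12). Col6a2, a collagen VI chain, was at 146 to 160.4 in RosiTram, 213 to 289 in DMSO and 21.9 to 36.9 in ATRA (2.36 ± 0.23), a difference that came with a fall in ATRA. Anxa8, a membrane-binding annexin, was at 2153 to 2816 in RosiTram, 905 to 946 in DMSO and 492 to 545 in ATRA (2.21 ± 0.15). Histone genes of replication-dependent clusters took 5 of the 15 places, with H1f2 at 1308 to 1439 in RosiTram against 172 to 403 in ATRA and 112 to 143 in DMSO (2.71 ± 0.23). Histone copies are near-identical and their main transcripts lack the poly-A tail by which these libraries were selected, so their values are uncertain.

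At the low end stood Slc4a11, a membrane transporter (-4.23 ± 0.33), which was at 11.8, 11.97, 8.73 and 6.55 in RosiTram, 148 to 224 in ATRA and 187 to 218 in DMSO. Igfbp4, a binding protein of insulin-like growth factors, was at 156 to 188 in RosiTram, 623 to 1414 in ATRA and 1694 to 1891 in DMSO (-2.78 ± 0.22). Both fell in RosiTram against DMSO, and ATRA did not pass that test (adjusted p = 0.923 and 0.0611).

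Besides Egr1, Stra6 and Ccn2, the genes named for opposite changes from DMSO (8 called genes whose mean was 50 or more, by the smaller of both changes) were Lbp, Ltf, Entpd3, Rgs4 and Osgin1, all up in ATRA and down in RosiTram. The naming of all 8 also required that RosiTram and ATRA libraries did not overlap, so that separation is not a result. Entpd3 (chr9:120539818-120568327), an ectonucleotidase, was at 93.9, 104, 103 and 99.96 in RosiTram, 219.8, 257 and 222 in DMSO and 542 to 660.0 in ATRA, so the groups were ordered without overlap. Its changes from DMSO were -1.21 ± 0.11 and 1.35 ± 0.11. Lactotransferrin (Ltf) and the lipopolysaccharide-binding protein (Lbp) are secreted defence proteins, with changes from DMSO of -1.38 and -1.79 in RosiTram and of 1.23 and 1.34 in ATRA.

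A few genes moved the same way in both treatments and did not pass the test between them. Pigr, which carries antibodies through epithelia, was at 1.54, 13.2 and 6.19 in DMSO, 35.1 to 72.5 in ATRA and 42.6 to 55.2 in RosiTram, so the treated groups overlapped (-0.15 ± 0.42, 95% interval -1.02 to 0.72). Tnfrsf19, a TNF receptor family member, was at 6.60 to 7.96 in DMSO, 36.9 to 61.8 in ATRA and 46.6 to 54.1 in RosiTram (0.02 ± 0.33, interval -0.66 to 0.69). Prl2c2, a secreted growth regulator with near-identical copies, fell in both, from 415 to 516 in DMSO to 17.6 to 73.7 in ATRA and 49.2 to 53.5 in RosiTram. The intervals leave room for differences between the treatments of about the size of their bounds. Gbp6, an interferon-induced GTPase, rose in both but by more in RosiTram (1.28 ± 0.34, adjusted p = 0.00358).

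Whether the difference between the treatments was the same at 72 h was tested as an interaction of treatment and time, which called 33.3% of genes, 2169 with a higher (15.5%) and 2498 with a lower (17.8%) difference at 72 h. Among 13 measured panel genes 5 were called. The difference in Dusp6 widened from -4.40 to -6.58 (by -2.18 ± 0.25, adjusted p = 6.12e-07) and that in Mki67 from -1.50 to -3.51 (by -2.01 ± 0.29, adjusted p = 2.04e-05). The differences in Rarb and Pparg narrowed, from -1.22 to -0.36 (by 0.86 ± 0.27, adjusted p = 0.0158) and from -1.35 to -0.89 (by 0.46 ± 0.18, adjusted p = 0.0481), and that in Foxa1 grew from 0.17 to 0.69 (adjusted p = 0.0328). These values include the library labelled ATRA 72 h replicate 1. Without it all 5 calls were kept, and Krt14, Clca1 and Spry4 were called as well, with Krt14 changing by -1.14 ± 0.25 (adjusted p = 0.000536) and Clca1 by 1.85 ± 0.47 (adjusted p = 0.00186).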

How the data were processed

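Poly-A RNA of 25 libraries of the second cell experiment was sequenced. The programs bcl2fastq 2.19, kallisto 0.44.0 and DESeq2 and the build GRCm38.p6 (mm10) are listed, with no order, per the submitters' processing notes; whether counting used strand is not given in the sources used here. The deposited values are a normalised read signal per gene, made by the authors, and all of them came out as whole reads (within 0.1) times 1 factor per library, so depth was recovered. The 6 DMSO columns held by both deposited tables were identical, so the tables were joined as they stood.

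Genes with a value of at least 10 in at least 3 libraries were kept (14014 of 35360). Log2(value + 1) was fitted with limma 3.58.1 (R 4.3.3; trend and robust options) over all 6 groups, with Benjamini-Hochberg adjustment over all genes tested, and the intervals of differences are from that fit. The pipeline was tested on simulated data. Alternatives were edgeR 4.0.16 and DESeq2 1.42.0 on the recovered reads, other normalisations, pseudocounts of 0.5 and 4, no filter, fewer groups, and leaving out each library. The fit without ATRA 72 h replicate 1 was chosen after seeing the data.

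Named genes are a panel, the called genes whose mean is 50 or more and whose groups do not overlap (the 15 most positive and 15 most negative), up to 4 and 2 called members of each list by direction, and 8 genes with opposite and 8 with like changes from DMSO. For the 8 with opposite changes the RosiTram and ATRA libraries also had to lie apart. The members and gene lists were chosen with earlier results of these data known. Intervals of read ratios are exact and cover counting error only. Replicates were numbered in accession order. Promoter sequences are from RefSeq on GRCm38.p6, gene positions from GENCODE M21.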

Additional observations from a re-analysis of the deposited data

Results flagged for a closer look

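In 14 of 80 groups checked, a single library lay far from the others of its group by Dixon's criterion, which chance gives in about 1 of 20 groups. Of these 10 were ATRA replicate 6. It was highest for Angptl4, at 998.2 against 140.6 to 151.7 in the other 5 ATRA libraries. It was also highest for Sprr2a2 (525.8 against 203.6 to 252.1), H1f2 (402.8 against 172.2 to 187.8) and Egr1 (621.4 against 373.1 to 450.7). It was lowest for the cycling marker Mki67 (3416 against 5940 to 7874), the vitamin A receptor Stra6 (457.1 against 932.2 to 992.8) and the transglutaminase Tgm2 (1464 against 1989 to 2234). The transporter Slc4a11 (147.5 against 194.1 to 224.2), osteopontin, Spp1 (655.8 against 1071 to 1283), and the growth factor binding protein Igfbp4 (622.9 against 1233 to 1414) were lowest there too. For Egr1, Stra6, Tgm2, Slc4a11, Spp1, Igfbp4, Mki67, Sprr2a2 and H1f2 this library was still clear of all RosiTram libraries, on the same side as the other ATRA libraries. All of these but Mki67 were named by a rule that required the treatments not to overlap, so for them this was fixed in advance. For Angptl4 the other ATRA libraries overlapped RosiTram.

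In RosiTram, replicate 1 was lowest for Mki67 (1843 against 2106 to 2155) and held the only Spry4 read of its group (0.4717 against 0). Replicate 3 was highest for Ccn2 (26.18 against 13.68 to 14.75), and replicate 4 was highest for Cyp26b1 (8.194 against 6.546 to 6.651).

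The interaction term in limma called 33.3% of all genes. By that term the difference between RosiTram and ATRA changed from 24 h to 72 h for 5 of the 13 panel genes tested. It became less negative for Pparg by 0.461 (adjusted p = 0.0481) and for Rarb by 0.857 (adjusted p = 0.0158), and more positive for Foxa1 by 0.518 (adjusted p = 0.0328). It became more negative for Dusp6 (-2.18, adjusted p = 6.12e-07) and Mki67 (-2.01, adjusted p = 2.04e-05). Without the library labelled ATRA 72 h replicate 1 the values were 0.519, 1.02, 0.717, -2.32 and -2.24 in the same order, all called.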

How the results depend on the processing

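No paired analysis was possible because the labels give the groups no shared replicate numbers. The direct comparison called 5984 genes, from 5483 to 6341 under the other settings (5963 with edgeR and 6038 with DESeq2), 5225 to 6333 with a 24 h library left out, and 6748 without ATRA 72 h replicate 1. Of 185 called named genes 0 reversed, 169 kept their call under every alternative that gave them a value (182 to 185 genes had a value per setting) and 16 lost it under at least 1. ATRA against DMSO called 3554 genes, or 2142 to 4943 with a library left out, with 1106 to 2344 higher (1753 in the fit as reported) and 1020 to 2599 lower (1801). Genes whose difference rose at least 2-fold from 24 h to 72 h numbered 347, and 312 to 595 with a library left out, the highest without ATRA 72 h replicate 1. The cause was not tested.

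Signs turned only for differences that were not called. With a library left out, Angptl4 ranged from -0.400 to 0.164, Prl2c2 from -0.213 to 0.188, Tnfrsf19 from -0.066 to 0.079 and Cmbl, a hydrolase gene, from -0.117 to 0.18. Prl2c2 was -0.015 with edgeR and -0.042 with DESeq2, and Tnfrsf19 was -0.035 and -0.020. Cmbl was -0.017 with quantile normalisation, -0.002 with joint normalisation, -0.048 with edgeR and -0.037 with DESeq2. For the change over time with a library left out, Gata3 ranged from -0.010 to 0.087, Krt6a from -0.069 to 0.421 and Etv5 from -0.841 to 0.014, and Etv5 was 0.155 with quantile normalisation. Genes with few reads, such as Cyp26a1, Fabp4 and the uroplakins, were limited by depth.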

Other observations

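Histone cluster genes, looked up after their values were seen, were higher in RosiTram than in ATRA for 22 of 50 tested symbols and lower for 1, with a median of 0.60 against 0.0030 for all genes, while all mitosis genes on their list were lower. In that comparison 21.1% of all genes were higher and 21.6% lower. Against DMSO 19 were higher and 3 lower in RosiTram, where 27.7% and 27.2% of all genes were. In ATRA 3 were higher and 0 lower against DMSO, below the 12.5% and 12.9% of all genes. H2bc24 (3.88), H1f3 (3.26), H2bc8 (3.04) and H2ac18 (2.84) were among the 15 highest named genes. Their copies are near-identical and most of their transcripts carry no poly-A tail, so single values are uncertain.

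Several named genes outside the lists also set the treatments apart. Coro6, a coronin that binds actin, was at 102, 108, 97.1 and 85.2 in RosiTram, 19.5 to 19.98 in DMSO and 12.3 to 36.7 in ATRA (2.10 ± 0.22). Itgb2, the beta chain of leukocyte integrins, was at 28.8, 25.9, 7.64 and 18.0 in RosiTram, 70.8 to 103 in DMSO and 131 to 172 in ATRA (-2.96 ± 0.35), while Cd68 went the other way (1.32 ± 0.27). The adipogenesis gene Medag was at 37.1 to 54.1 in RosiTram, 292 to 309 in DMSO and 318 to 491 in ATRA (-3.23 ± 0.19).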
